A study of Mus musculus with 16 samples.

Results

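The genes that admit glucose to the cell, split it to pyruvate and pass lactate out were followed in gonadal white adipose tissue, the fat pad beside the testis. The module was a list of 37 gene symbols, of which 32 were analysed out of 22180 genes measured. A gene was represented by a probe set annotated to its symbol alone, and by the one with the highest mean over the 16 arrays where several existed. Gpi1, Pfkfb1, Eno1, Aldoa and Pgm1 were not analysed here. For Aldoa and Pgm1 the annotated probe set carried a second gene's symbol as well. Affymetrix whole-transcript arrays were hybridised with RNA of male C57BL/6 mice aged 3 to 4 months, with tissue collected in the morning. There were 8 samples from fed mice and 8 samples from mice kept without food for 16 hours. The labels name no transgene, drug or other treatment in either group, and they leave unsaid whether every sample was a different animal. The question of the comparison was which transcripts of this fat depot change on food withdrawal.

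Glucose enters adipocytes through facilitative carriers of the SLC2A family, chiefly GLUT4 (Slc2a4), which insulin moves from stored vesicles to the cell surface. Hexokinase traps glucose as glucose 6-phosphate, phosphofructokinase commits it to glycolysis, and the lower enzymes carry it to pyruvate. In fat the pathway feeds fatty acid synthesis, glycerol phosphate for triglyceride and lactate, which leaves through monocarboxylate carriers of the SLC16A family.

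Values are on the deposited log2 scale, errors of means are SD over 8 arrays, and each fold is the higher group over the lower. A gene was called when its Benjamini-Hochberg adjusted p from limma, taken over all 22180 genes, was under 0.05. All 10 measured adipocyte markers passed a brightness filter, a linear value of 20 or more in 8 or more arrays. Their summed linear level lay between 33080 and 38526 in fed and between 33116 and 36624 in fasted arrays, a sum set mainly by the brightest markers. Of the 10, 3 were called higher and 3 lower (60%, against 19.2% of all genes). Lep fell 3.81-fold, Plin1 1.79-fold and Retn 1.19-fold, while Pnpla2 rose 1.52-fold, Cidec 1.19-fold and Aqp7 1.18-fold. Fed replicates 2 and 3 and fasted replicate 7 stood apart on later principal components, and results that rest on them are given with and without them. Because whole tissue was profiled, fewer cells of a type and less RNA per cell cannot be told apart.

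Transcripts of the pathway moved mostly downward, with the largest steps at glucose entry, the first phosphorylation and triose phosphate isomerase. Of the 32 genes 14 were called lower and 2 higher in fasted arrays, where 10.7% of all genes were called lower and 8.49% higher (19.2% in either direction). Most of the 32 were bright, and calls were more frequent among bright genes: a fit on the upper part of the table by mean value called 41.3% of 11090 genes and 19 of the 27 pathway genes in it, and one on the genes past the brightness filter called 42% and 17 of 25. The median log2 fold change was -0.19 over the 32 genes and -0.004 over all genes, and 22 of the 32 lay below 0. Fed and fasted values were fully separated in 5 of the 32, against 6.48% of all genes, bright and dim together. These were 4 lower genes, Slc2a4, Hk2, Tpi1 and Pkm (3.45% of all genes), and 1 higher gene, Pgm2 (3.03%). Without the 3 arrays that stood apart 14 of the 32 were called, 13 of them also called in all 16 arrays, against 17.5% of all genes. With array medians subtracted 12 were called, against 17.2%. The plots of values per array and of changes by pathway step show these genes together.

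**Figure D1:**
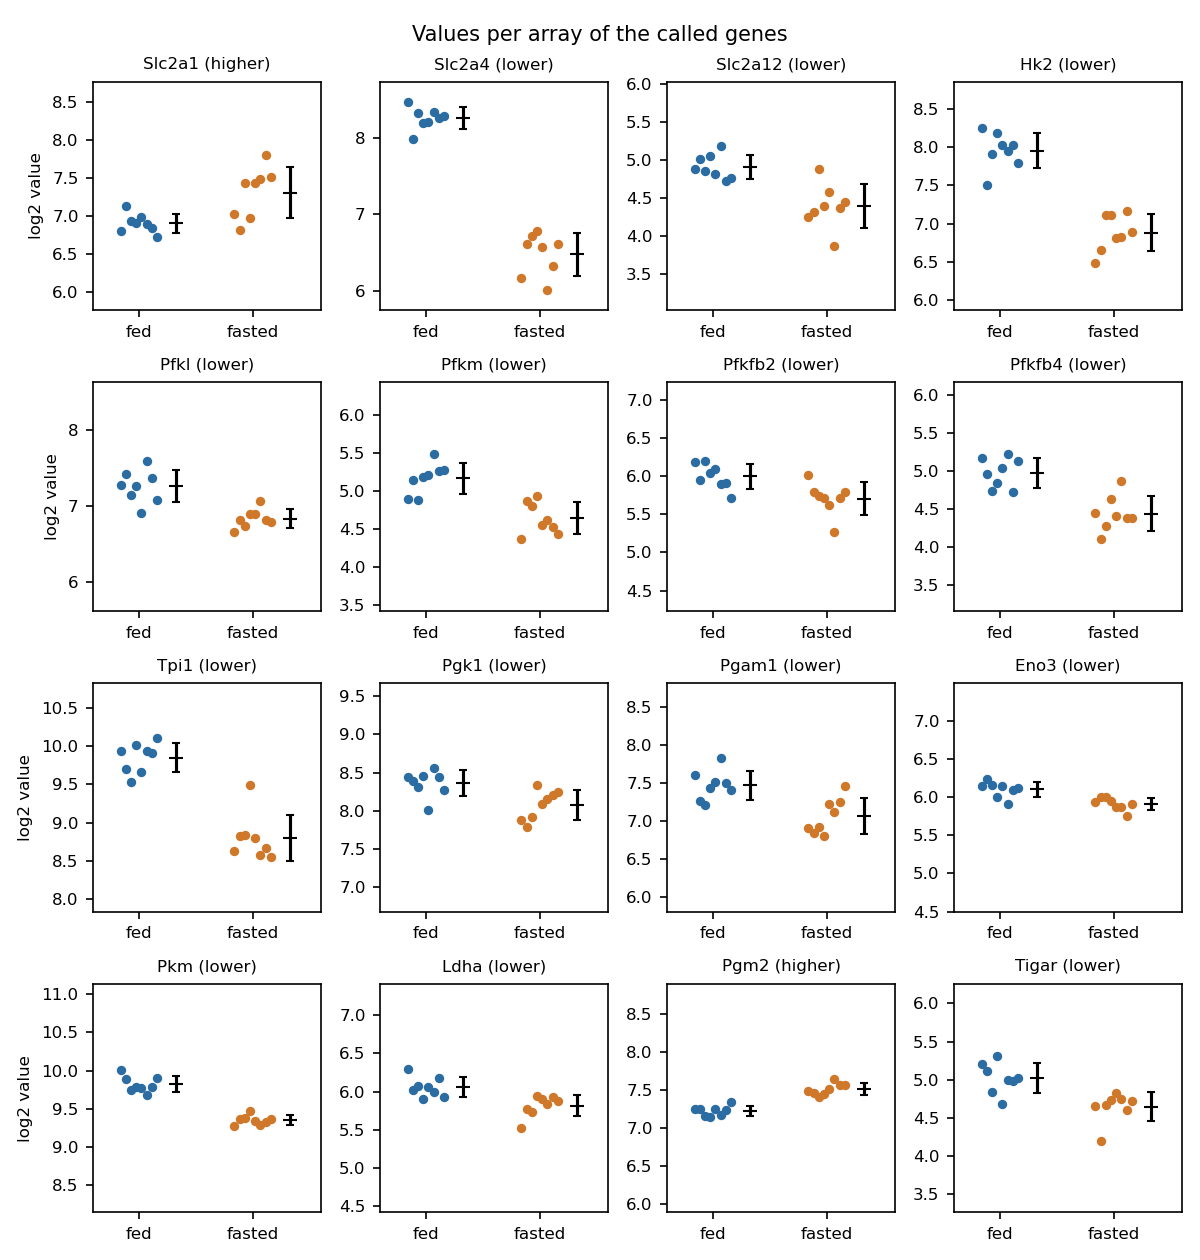
Log2 values (vertical axes, each spanning the same number of log2 units) of the 16 called genes in the 8 fed and 8 fasted arrays. Points are arrays, and the black bar is the mean with its SD. Slc2a4, Hk2, Tpi1, Pkm and Pgm2 show no overlap between the groups, and the high fasted point of Tpi1 is fasted replicate 4 at 9.49.

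**Figure D2:**
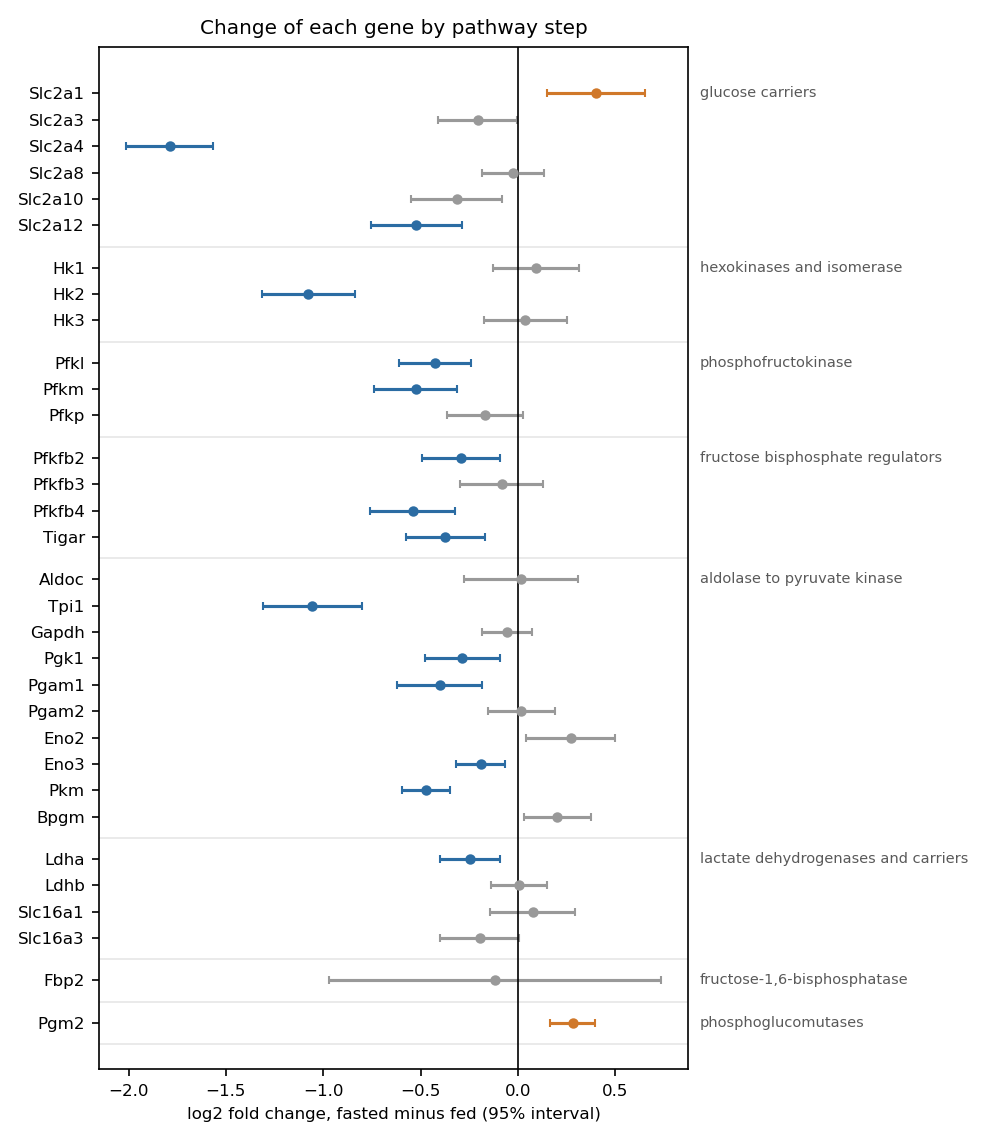
Log2 fold change, fasted minus fed (horizontal axis), with its 95% interval from limma for the 32 genes, grouped by pathway step. Blue genes were called lower, orange genes higher, and grey genes were not called. Slc2a4 lies farthest to the left at -1.79, followed by Hk2 at -1.08 and Tpi1 at -1.06.

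Promoter windows from RefSeq (build GRCm38.p6, 250 bases before to 50 after the annotated start) were found for 35 of the 37 listed genes, but not for Slc2a3 and Slc2a4. Shown here are Hk2 (chr6:82774405-82774704, minus strand) and Tpi1 (chr6:124814109-124814408, minus strand), the largest falls with a window, Slc2a1 (chr4:119108495-119108794, plus strand) and Pgm2 (chr5:64092689-64092988, plus strand), the genes that rose, and Ldha (chr7:46845554-46845853, plus strand; the first of its windows), chosen after the matches were seen because it holds the most of the hypoxia core. Capitals mark motif matches on either strand. The E-box, bound by MLXIPL and MYC, was searched as CACGTG. The core of the hypoxia response element was searched as ACGTG, and every E-box match also holds it. The forkhead motif was searched as TGTTTAC, the sterol response element as TCACNCCAC and the SP1 box as GGGCGG.
Hk2: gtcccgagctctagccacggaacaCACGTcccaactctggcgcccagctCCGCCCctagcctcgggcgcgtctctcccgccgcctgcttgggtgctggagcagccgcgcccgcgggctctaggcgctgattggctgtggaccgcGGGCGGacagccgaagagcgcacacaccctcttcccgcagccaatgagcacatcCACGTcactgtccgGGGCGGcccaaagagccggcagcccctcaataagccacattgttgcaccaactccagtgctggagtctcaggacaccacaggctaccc
Tpi1: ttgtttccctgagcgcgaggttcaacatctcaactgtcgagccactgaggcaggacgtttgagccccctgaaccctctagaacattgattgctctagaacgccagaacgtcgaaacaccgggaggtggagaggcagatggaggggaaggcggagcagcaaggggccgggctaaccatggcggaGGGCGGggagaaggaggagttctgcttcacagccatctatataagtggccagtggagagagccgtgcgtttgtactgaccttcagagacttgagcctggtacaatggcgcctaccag
Ldha: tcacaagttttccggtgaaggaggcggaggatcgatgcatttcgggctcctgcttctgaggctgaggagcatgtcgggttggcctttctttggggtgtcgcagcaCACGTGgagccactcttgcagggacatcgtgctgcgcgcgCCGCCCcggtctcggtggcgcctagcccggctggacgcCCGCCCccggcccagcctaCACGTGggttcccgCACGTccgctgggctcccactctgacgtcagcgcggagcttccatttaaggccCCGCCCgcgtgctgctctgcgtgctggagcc
Slc2a1: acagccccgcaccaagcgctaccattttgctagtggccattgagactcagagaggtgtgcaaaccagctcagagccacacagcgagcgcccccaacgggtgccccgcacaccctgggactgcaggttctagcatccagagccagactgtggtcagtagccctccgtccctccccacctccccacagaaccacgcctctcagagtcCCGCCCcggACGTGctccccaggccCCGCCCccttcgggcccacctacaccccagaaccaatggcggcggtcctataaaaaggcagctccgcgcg
Pgm2: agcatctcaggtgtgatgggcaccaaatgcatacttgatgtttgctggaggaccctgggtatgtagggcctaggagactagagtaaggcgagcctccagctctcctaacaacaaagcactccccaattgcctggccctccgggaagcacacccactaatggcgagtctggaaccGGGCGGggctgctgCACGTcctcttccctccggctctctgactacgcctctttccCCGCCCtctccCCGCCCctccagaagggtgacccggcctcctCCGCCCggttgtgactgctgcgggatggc
ACGTG was present in windows of 20 of the 35 genes (57.1%), against 21.8% of 27025 genes in the table. It was present for 9 of 15 genes that were not called and for 7 of 13 genes called lower. CACGTG was found for 6 of the 35 genes (17.1%, against 8.09% of all genes), namely Fbp2, Ldha, Pfkfb2, Pfkfb3, Pfkm and Slc16a1. GGGCGG was found for 24 genes (68.6%, against 38.2%), and 10 of the 13 genes called lower with a window held it, as did 7 of the 15 not called. TCACNCCAC was found for Aldoc, Pkm and Slc2a8, and TGTTTAC for Aldoc. A gene was counted when any of its windows held the motif, and some genes had several windows. By window the shares were 46.2% of 52 against 19.6% of 32851 for ACGTG, 11.5% against 7.15% for CACGTG and 51.9% against 35.7% for GGGCGG. The windows of these genes had a median GC share of 57.3%, against 52.7% over all windows, and its part in these shares was not tested. A match is only a run of letters in this window.

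Among the glucose carriers, Slc2a4 fell sharply. Its lowest, median and highest log2 values were 7.99, 8.28 and 8.48 in fed arrays and 6.01, 6.59 and 6.78 in fasted arrays. The highest fasted array thus lay more than a full log2 unit under the lowest fed array. The mean went from 8.26 ± 0.14 to 6.47 ± 0.28 (n = 8 per group), a fall of 3.46-fold (SE 0.107 on the log2 scale, limma adjusted p = 1.67e-09). By p it ranked 22 among all 22180 genes, and by size 34 among the falls. Slc2a12, the carrier GLUT12 that is also found in insulin-sensitive tissues, fell 1.44-fold (limma adjusted p = 0.00210). Its values ran from 4.72 to 5.19 in fed and from 3.87 to 4.88 in fasted arrays, so the groups overlapped.

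Slc2a1 encodes GLUT1, the carrier of basal glucose uptake in most cells, and it rose. Its log2 values were 6.73, 6.91 and 7.13 (lowest, median, highest) in fed and 6.81, 7.43 and 7.80 in fasted arrays. The fasted arrays were spread more widely: 5 lay between 7.43 and 7.80, above every fed array, and fasted replicates 1, 2 and 4 lay within the fed range at 7.02, 6.81 and 6.97. The mean rise was 1.32-fold (log2 0.40, SE 0.120, limma adjusted p = 0.0223). A second, dimmer probe set of Slc2a1 gave 0.04 (SE 0.0954, limma adjusted p = 0.835), with means of 3.22 in fed and 3.26 in fasted arrays. The exact rank sum test did not call Slc2a1 (adjusted p = 0.0706). Some endothelial and macrophage markers were also higher, with 4 of 12 endothelial genes called higher and none lower, and 4 of 12 macrophage genes higher and 1 lower. The shares called were 33.3% and 41.7%, against 19.2% of all genes. All of them passed the brightness filter, and calls were more frequent among bright genes. The 42% called past that filter came from a separate fit with its own adjustment, so it cannot be set beside these shares. The summed linear level of the endothelial list lay between 4749 and 6472 in fed and 6013 and 7280 in fasted arrays, and that of the macrophage list between 5113 and 6044 and between 5324 and 8214. Their part in the rise of Slc2a1 was not tested.

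The other carriers were not called. Slc2a10, the carrier GLUT10, went from 4.41 ± 0.28 to 4.10 ± 0.17 (log2 fold change -0.32, SE 0.112, limma adjusted p = 0.0571). It was called lower without fed replicate 2 (adjusted p = 0.0158), fed replicate 3 (0.0223) or fasted replicate 4 (0.0463), and without the 3 arrays that stood apart (log2 fold change -0.46, limma adjusted p = 0.00338). Slc2a3, a high-affinity carrier of neurons and leukocytes, had a log2 fold change of -0.21 (95% interval -0.41 to -0.0044, limma adjusted p = 0.163). For Slc2a8, a carrier kept inside the cell, the interval was -0.19 to 0.14.

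The carriers therefore changed unequally within the same arrays. For every pair of genes from 1 enzyme or carrier family the difference of the log2 values within each array was compared between groups with a two-sided exact permutation test over the 12870 ways to split the arrays, with adjustment over 28 pairs. Pairs that share a gene are not independent. Of 15 carrier pairs 10 passed at an adjusted p under 0.05, and 12 without the 3 arrays that stood apart. Without them Slc2a1 against Slc2a8 no longer passed (adjusted exact p = 0.0340 in all arrays, 0.0612 without). Slc2a3 against Slc2a8 (0.0447), Slc2a3 against Slc2a10 (0.0317) and Slc2a8 against Slc2a10 (0.00181) passed only without them. Slc2a10 did not pass the brightness filter, so background compresses its change and the size of its differences is uncertain. Slc2a4 differed from each of the other 5 carriers, by 1.27 (Slc2a12) to 2.19 (Slc2a1) on the log2 scale. In each of these 5 pairs all 8 fasted arrays lay beyond all fed arrays (adjusted exact p = 0.000544, from the smallest p the design allows, 0.000155), and all 5 also passed without the 3 arrays (0.00181). Slc2a1 moved up against Slc2a12 by 0.92 (SE 0.159, the same adjusted p) and against Slc2a3 by 0.61 (SE 0.140, adjusted exact p = 0.00290).

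**Figure D3:**
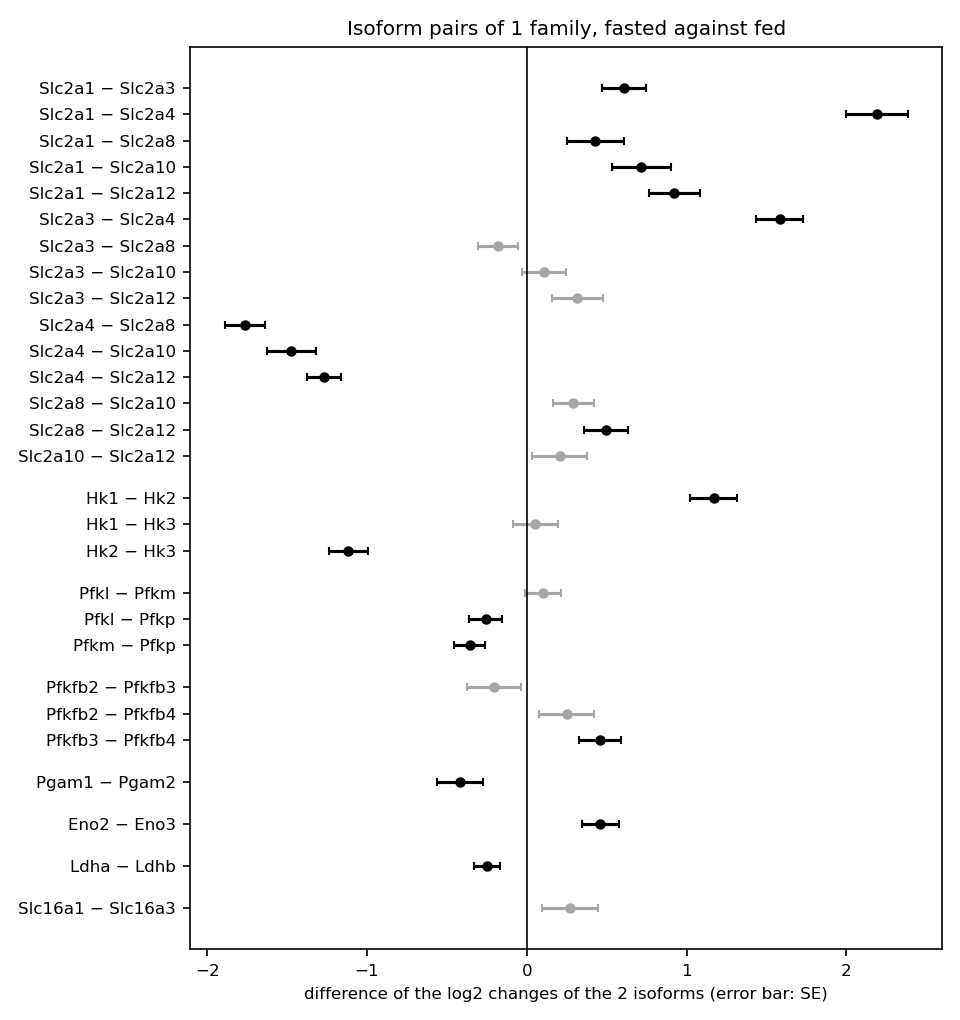
Difference between the log2 changes of the genes in each of 28 isoform pairs (horizontal axis, first gene minus second), with its SE from the 8 fed and 8 fasted arrays. Black pairs passed the exact permutation test after adjustment, and grey pairs did not. The pairs of Slc2a4 and of Hk2 lie farthest from 0, at up to 2.19 and 1.17.

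At the first phosphorylation Hk2, the hexokinase isoform of insulin-sensitive tissues, fell while the other isoforms were not called. Hk2 had log2 values of 7.51, 7.99 and 8.25 (lowest, median, highest) in fed and 6.48, 6.86 and 7.16 in fasted arrays. The groups did not overlap, and the lowest fed value was that of fed replicate 2. Its mean fell 2.11-fold (SE 0.113 on the log2 scale, limma adjusted p = 1.46e-06). Hk1, the isoform of most tissues, stood at 6.43 ± 0.22 and 6.53 ± 0.21 (n = 8; limma adjusted p = 0.647). Hk3, an isoform of myeloid cells, stood at 4.13 ± 0.21 and 4.17 ± 0.21 (limma adjusted p = 0.868), and 0 of 10 neutrophil markers were called by limma (0 at an unadjusted p under 0.05). Only 1 of these 10 markers passed the brightness filter, so the count says little about neutrophils. Hk2 changed unequally with Hk1, by 1.17 on the log2 scale (SE 0.148), and with Hk3, by -1.12 (SE 0.121; both adjusted exact p = 0.000544). Hk3 did not pass the brightness filter, so background compresses its change and the size of the latter difference is uncertain.

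Phosphofructokinase, the committed step, was lower in its liver-type and muscle-type subunits. Pfkl fell 1.34-fold, from 7.26 ± 0.21 to 6.83 ± 0.12 (n = 8; limma adjusted p = 0.00161). Pfkm fell 1.44-fold, from 5.16 ± 0.20 to 4.64 ± 0.21 (limma adjusted p = 8.07e-04). The groups overlapped in both: the highest fasted value was 7.07 for Pfkl and 4.94 for Pfkm, and the lowest fed values were 6.91 and 4.88. Pfkp, the platelet-type subunit, stood at 8.31 ± 0.18 and 8.14 ± 0.19 (log2 fold change -0.17, limma adjusted p = 0.251). The falls of Pfkm and Pfkl exceeded the change of Pfkp by 0.36 (adjusted exact p = 0.00870) and 0.26 (0.0438), the latter lost without the 3 arrays that stood apart (0.185). Between Pfkl and Pfkm the difference was 0.10 (SE 0.113, adjusted exact p = 0.419).

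Genes that set fructose 2,6-bisphosphate, the activator of phosphofructokinase, were called lower in 3 of 4 cases, against 10.7% of all genes. All 4 passed the brightness filter, and calls were more frequent among bright genes. Pfkfb4, a bifunctional kinase and phosphatase, fell 1.45-fold, with fed values from 4.72 to 5.22 and fasted values from 4.11 to 4.87 (limma adjusted p = 8.30e-04). Tigar, a phosphatase that lowers fructose 2,6-bisphosphate, fell 1.30-fold, from 5.02 ± 0.20 to 4.65 ± 0.19 (n = 8; limma adjusted p = 0.00946). Pfkfb2, the heart-type bifunctional enzyme, fell 1.22-fold (limma adjusted p = 0.0367). Leaving out fed replicate 1, 3, 4 or 5 or fasted replicate 3, 4, 5, 6 or 7 ended its call (adjusted p = 0.0514 to 0.0749), as did leaving out the 3 arrays that stood apart (0.116) and all 3 further normalizations (0.0854 to 0.106). Pfkfb3, the inducible form, stood at 9.47 ± 0.18 and 9.39 ± 0.24 (limma adjusted p = 0.677), and its change differed from that of Pfkfb4 by 0.46 (SE 0.132, adjusted exact p = 0.00870).

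Between the aldolase step and pyruvate, Tpi1 and Pkm fell with no overlap of the groups. Tpi1, which interconverts the triose phosphates, had log2 values of 9.54, 9.93 and 10.11 (lowest, median, highest) in fed and 8.55, 8.74 and 9.49 in fasted arrays. The highest fasted value, that of replicate 4, stood apart, since the next was 8.84. The mean fell 2.08-fold (SE 0.120 on the log2 scale, limma adjusted p = 3.68e-06), and without fasted replicate 4 the log2 fold change was -1.16 (adjusted p = 5.65e-08). Pkm, the pyruvate kinase of most tissues, fell 1.39-fold, from 9.82 ± 0.11 to 9.35 ± 0.06 (n = 8; limma adjusted p = 1.06e-05), with fed values from 9.67 to 10.01 and fasted values from 9.27 to 9.46. Its fasted arrays were among the most uniform of the pathway.

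The other lower-glycolysis genes changed by smaller steps or were not called. Pgam1, the phosphoglycerate mutase of most tissues, fell 1.32-fold (limma adjusted p = 0.00909), with its dimmer probe set at -0.25 (SE 0.0997, adjusted p = 0.0882). Whether the brighter probe set reads Pgam1 itself or a near-identical copy was not tested, so its call may not belong to Pgam1. Pgk1, the first enzyme that returns ATP, fell 1.22-fold (limma adjusted p = 0.0355). Leaving out fed replicate 1, 2, 4, 6 or 7 or fasted replicate 1, 2, 3 or 5 ended that call (adjusted p = 0.0526 to 0.0737), as did leaving out the 3 arrays that stood apart (0.0638) or subtracting array medians (0.0727). Eno3, the muscle-type enolase, fell 1.14-fold (limma adjusted p = 0.0313), with means of 6.10 ± 0.10 and 5.91 ± 0.08 (n = 8). It was no longer called without fed replicate 1, 2, 3, 5 or 8, without fasted replicate 5, 6 or 7 (adjusted p = 0.0502 to 0.0666), without the 3 arrays that stood apart (0.193), or after any of the 3 further normalizations (0.130 to 0.173). Eno2, the neuronal enolase, had a log2 fold change of 0.27 (SE 0.108, limma adjusted p = 0.0935), and the changes of Eno2 and Eno3 differed by 0.46 (SE 0.115, adjusted exact p = 0.00305). Eno2 did not pass the brightness filter, so the size of that difference is uncertain. The summed linear level of 9 nerve markers lay between 145 and 196 in fed and 198 and 311 in fasted arrays. Stmn2, with means of 6.44 in fed and 7.21 in fasted arrays, weighs heavily in that sum. Stmn2 and Snap25 were called higher (1.71-fold and 1.65-fold), and the median over the list was -0.07. Snap25 was dim, at 2.96 ± 0.33 and 3.68 ± 0.25, and 2 of the 9 markers passed the brightness filter. The part of nerve transcripts in the value of Eno2 was not tested.

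Gapdh, often used as a reference gene, had means of 11.76 ± 0.11 and 11.71 ± 0.07 (log2 fold change -0.06, 95% interval -0.18 to 0.07, limma adjusted p = 0.622). Its other single-symbol probe sets gave -0.06 and 0.04. The annotation lists 8 further probe sets under Gapdh together with another symbol, so transcripts of near-identical copies may enter its value. Pgam2, the muscle-type mutase, was dim at 2.45 ± 0.18 and 2.46 ± 0.13 (limma adjusted p = 0.932). Of 14 skeletal muscle markers 1 was called higher (Acta1) and 1 lower (Myl1), and 3 passed the brightness filter. Acta1 went from 6.50 ± 0.48 to 9.17 ± 0.67 and Myl1 from 7.32 ± 0.21 to 5.98 ± 0.42 (n = 8), and 10 of the 14 had a log2 fold change below 0. The summed linear level of the list, in which Acta1 weighs heavily, lay between 333 and 424 in fed and 438 and 1361 in fasted arrays. Its mean log2 value lay between 3.58 and 3.86 in both groups. The part of muscle transcripts in the values of Pfkm, Eno3 and Pgam2 was not tested. Bpgm, which makes 2,3-bisphosphoglycerate in red cells, stood at 5.93 ± 0.10 and 6.13 ± 0.20 (limma adjusted p = 0.102), and it was called higher without fasted replicate 1 (adjusted p = 0.0307). None of the 3 measured red cell markers passed the brightness filter.

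Fbp2, the muscle form of fructose-1,6-bisphosphatase, which runs the committed step backward, varied most within groups. It was 5.82 in fed replicate 2 and 5.29 in fasted replicate 7, and between 2.59 and 3.96 in the other 14 arrays. These 2 arrays also had the highest summed level of 14 ciliated cell markers, at 615 and 397, against 104 to 164 in the others. The summed level of 10 epididymal markers was highest in the same arrays as well, at 129 and 84.8, against 57.1 to 69.0 in the others. Of these 10, 0 passed the brightness filter. Only Adam7 varied widely, with an SD of 1.33 in fed and 0.81 in fasted arrays, against 0.33 or less for the others. The epididymal sum may thus reflect 1 gene. The summed level of 12 liver markers was 12394 and 8825, against 3802 to 12245. Aldoc, the brain-type aldolase, was highest in the same 2 arrays, at 4.79 and 4.39, against 3.53 to 4.21 in the others. Neither gene was called between groups, with log2 fold changes of -0.12 (SE 0.407) and 0.01 (SE 0.139) in all 16 arrays. Without the 3 arrays that stood apart the values were -0.15 and 0.06, and neither was called (limma adjusted p = 0.673 and 0.801). The part of ciliated, epididymal or other cells in these levels was not tested.

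**Figure D4:**
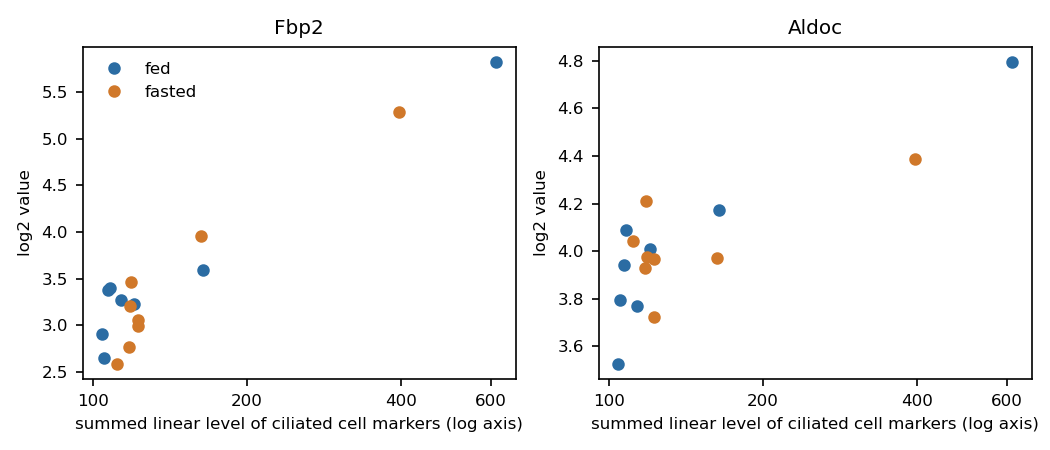
Log2 value of Fbp2 and of Aldoc (vertical axes) against the summed linear level of 14 ciliated cell markers (horizontal log axis) in 8 fed and 8 fasted arrays, 1 point an array. Fed replicate 2 at 615 and fasted replicate 7 at 397 lie to the right of all other arrays and hold the highest values of both genes.

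At the lactate step Ldha, whose subunit favours lactate production, fell 1.18-fold, from 6.06 ± 0.13 to 5.81 ± 0.14 (n = 8; limma adjusted p = 0.0242). Its call was lost without fed replicate 1 (adjusted p = 0.0515) or fed replicate 7 (0.0516), and with array medians subtracted (0.0959), cyclic loess (0.0559) or repeated quantile normalization (0.0758). Ldhb, the heart-type subunit, stood at 6.68 ± 0.10 and 6.68 ± 0.14 (limma adjusted p = 0.978), and the changes of the subunits differed by 0.25 (SE 0.0799, adjusted exact p = 0.00870). The carriers Slc16a1 (MCT1) and Slc16a3 (MCT4) were not called. Slc16a1 had log2 values of 8.89 to 9.47 in fed and 8.94 to 9.66 in fasted arrays, with an interval of -0.14 to 0.29 for the change. Slc16a3 was dim, at 3.40 ± 0.12 and 3.21 ± 0.25 (limma adjusted p = 0.194), and the difference between the changes of the carriers was 0.27 (SE 0.176, adjusted exact p = 0.202).

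Pgm2, a phosphoglucomutase family member on chromosome 5 that in human acts chiefly on pentose phosphates, was the other gene that rose. Its values were 7.15, 7.24 and 7.34 (lowest, median, highest) in fed and 7.40, 7.50 and 7.64 in fasted arrays. The rise was small but every fasted array lay above every fed array. It came to 1.22-fold (log2 0.28, SE 0.0545, limma adjusted p = 8.98e-04).

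The genes also varied within groups. The SD was larger in fasted than in fed arrays for 21 of the 32 genes, and for 56.1% of all genes. The other 31 genes were set against Slc2a4 across the 8 arrays of each group separately, 62 relations in all, with exact permutation over pairings. By Pearson's r none passed after adjustment in either group, and 2 in each group had an unadjusted p under 0.05. By Spearman's rho none passed either, and 1 in fed and 3 in fasted arrays had an unadjusted p under 0.05. The strongest relation was that with Pkm in fasted arrays, with r = 0.880 (exact permutation p = 0.00216, adjusted 0.134, n = 8) and rho = 0.952 (exact permutation p = 0.00114, adjusted 0.0707). Without the 2 arrays farthest from the median of Slc2a4, r was 0.825.

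Other genes of sugar and lactate transport changed in a few cases. Of 15 measured, 3 were called lower and 1 higher, with a median log2 fold change of -0.05. The share called was 26.7%, against 19.2% of all genes. Slc2a13, a proton-coupled inositol carrier of the same family, fell 2.53-fold, from 6.50 ± 0.39 to 5.16 ± 0.20 (n = 8; limma adjusted p = 1.67e-06). Slc16a7 (MCT2), a high-affinity pyruvate and lactate carrier, fell 2.08-fold, from 8.28 ± 0.13 to 7.22 ± 0.22 (limma adjusted p = 1.06e-07), with no overlap of the groups. Mpc1, a subunit of the mitochondrial pyruvate carrier, fell 1.45-fold (limma adjusted p = 0.00120). Emb, a chaperone of monocarboxylate carriers, rose 1.31-fold by its brightest probe set (limma adjusted p = 0.0106) but was at -0.012 on the log2 scale by its dimmest (0.968). In this list 2 genes were called higher without fed replicate 5 or 8 or fasted replicate 3 or 7. Without fed replicate 6, 5 were called lower. Of 19 other enzymes of sugar metabolism 3 were called lower, Ldhd, Slc37a4 and Pgm5, by 1.65-fold, 1.59-fold and 1.52-fold, and Pgm2l1 rose 1.23-fold. The share called, 21.1%, is near the 19.2% of all genes. Ldhd oxidises D-lactate and Slc37a4 carries glucose 6-phosphate into the endoplasmic reticulum. The call of Pgm5 ended without fed replicate 2, 4 or 6 or fasted replicate 2, 5 or 8 (limma adjusted p = 0.0576 to 0.0655).

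Genes that move GLUT4 vesicles were lower in 9 of 28 cases and higher in 1, with a median log2 fold change of -0.15. The share called was 35.7%, against 19.2% of all genes, and all 28 passed the brightness filter. In the fit on the genes past that filter 12 of the 28 were called lower and 2 higher, against 42% of its genes called. Cav1, the coat protein of caveolae, fell 1.72-fold, from 10.19 ± 0.10 to 9.41 ± 0.13 (n = 8; limma adjusted p = 1.25e-07). Stxbp4, which binds the syntaxin of the fusion machinery, fell 1.69-fold (limma adjusted p = 2.83e-05). Tbc1d4, the Rab regulator that insulin signalling switches off to release the vesicles, fell 1.65-fold, from 7.88 ± 0.19 to 7.16 ± 0.16 (limma adjusted p = 9.66e-06). The motor Myo1c fell 1.43-fold, and Lrp1, a cargo receptor of these vesicles, rose 1.28-fold (limma adjusted p = 9.82e-05 and 2.07e-04). In each of these 5 genes, named for the size of their changes, the groups did not overlap. Over the list this held for 7 of the 28 genes, against 6.48% of all genes, bright and dim together. The share among bright genes alone was not taken. Without fasted replicate 1 or fasted replicate 4, 2 genes of the list were called higher.

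Regulators of the pathway moved both ways, with 9 of 29 called higher and 6 lower and a median log2 fold change of 0.05. The share called was 51.7%, against 19.2% of all genes, and 27 of the 29 passed the brightness filter. In the fit on the genes past that filter 9 of these 27 were called higher and 8 lower, against 42% of its genes called. Srebf1, the lipogenic factor, fell 3.94-fold (limma adjusted p = 1.03e-08). Mlxipl, the glucose-sensing factor ChREBP, fell 1.82-fold, from 8.03 ± 0.32 to 7.17 ± 0.14 (n = 8; limma adjusted p = 2.65e-05), and its partner Mlx fell 1.45-fold (limma adjusted p = 7.17e-04). The thyroid hormone receptor Thra fell 1.37-fold. Mlxip, a paralog of Mlxipl, rose 1.49-fold, from 7.22 ± 0.13 to 7.80 ± 0.21 (limma adjusted p = 1.01e-04). Txnip, which restrains glucose uptake, rose 1.45-fold, from 11.58 ± 0.11 to 12.11 ± 0.07 (limma adjusted p = 3.75e-06). Vhl, which marks hypoxia-inducible factors for breakdown, rose 1.68-fold, and Arnt, their shared partner subunit, rose 1.42-fold (limma adjusted p = 1.70e-05 and 1.86e-05). Mlxipl and Mlxip, which share the partner Mlx, thus changed in opposite directions in these arrays.

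**Figure D5:**
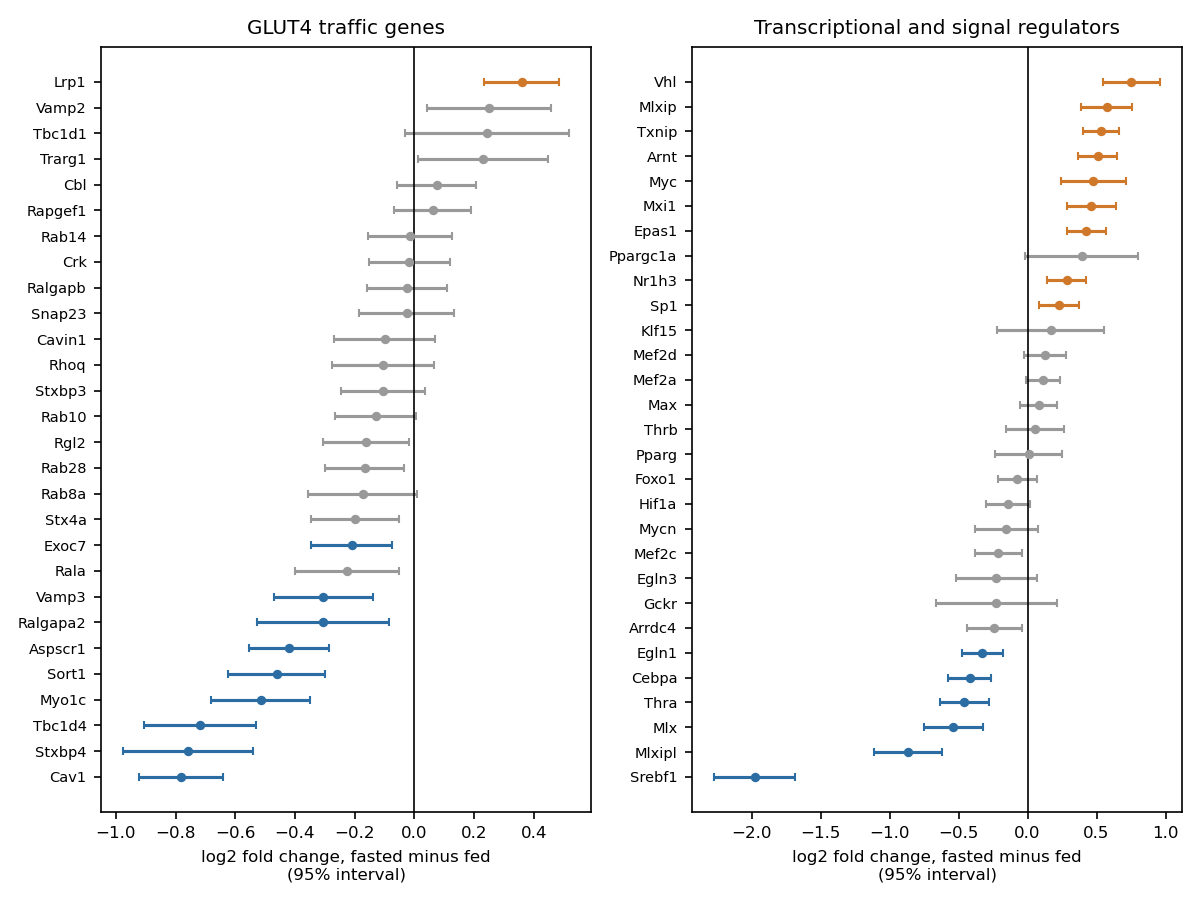
Log2 fold change, fasted minus fed (horizontal axes), with its 95% interval from limma for 28 genes of GLUT4 traffic and 29 regulators. Blue genes were called lower, orange genes higher, and grey genes were not called. Cav1 at -0.78 and Srebf1 at -1.98 are the lowest of the panels, and Lrp1 at 0.36 and Vhl at 0.75 the highest.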

How the data were processed

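Per the labels' protocols, samples with degraded RNA were left out and 100 ng of RNA was labelled for each array. The deposited values are log2 values made with RMA per the submitters' processing notes, with version, software and filters not given in the sources used here. RMA gives the arrays a shared distribution, so changes are relative to the other transcripts, and background and saturation compress the changes of dim and bright genes. The number of arrays limits the precision, and p-values reflect only how these samples vary.

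Of 41345 probe sets 23521 had 1 gene symbol in the platform annotation, 1814 had several and 16010 were unnamed here. Gene IDs of 23328 matched the RefSeq table of GRCm38.p6, and 0 symbols changed. Arrays correlated at 0.966 to 0.993. The group term was tested by limma 3.58.1 (lmFit, eBayes; R 4.3.3) without further normalization or filter. The arrays were treated as unpaired, and whether the replicate numbers pair them was not settled. The code was tested on simulated data. The members and lists were chosen with earlier results of these data known. Named were all members, up to 4 called genes per direction of the other pathway lists and, of the cell type lists, called genes beside a result. Lists of liver, epididymal, germ cell and nerve markers are reported with the limits. Alternatives were 2 filters on dim genes, 3 normalizations, array weights, eBayes with trend and robust fitting, the replicate block, all probe sets, other probe sets, an exact rank sum test, an adjusted p under 0.01, each array left out in turn, and 3 arrays left out together. Figures used matplotlib 3.10.9.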

Additional observations from a re-analysis of the deposited data

Results flagged for a closer look

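Single arrays lay far from the rest of their group of 8 in 7 of 64 groups tested (32 genes in fed and in fasted arrays), by the gap to the nearest array over the range of the group. Chance marks about 1 group in 20. Fed replicate 6 was highest for Slc2a8 at 5.08 (next 4.92), and fasted replicate 7 was lowest for the same gene at 4.44 (next 4.84). Fasted replicate 4 was highest for Tpi1 at 9.49 (next 8.84), and it also had the lowest position of the fasted arrays on the first principal component (12.8, others 20.8 to 30.7). Fed replicate 4 was lowest for Pgam2 at 2.02 (next 2.41) and highest for Bpgm at 6.15 (next 5.96). Fed replicate 2 was highest for Fbp2 at 5.82, beside its summed level of ciliated cell markers of 615. Fasted replicate 2 was lowest for Tigar at 4.20 (next 4.61).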

How the results depend on the processing

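Of the 16 called pathway genes 10 kept their call and direction under all 29 alternatives: Slc2a4, Slc2a12, Hk2, Pfkl, Pfkm, Pfkfb4, Tigar, Tpi1, Pkm and Pgm2. The other 6 kept their direction and lost the call under at least 1 alternative. Slc2a1 lost it with the replicate number as a block (adjusted p = 0.0528), by the exact rank sum test (0.0706) and with its dimmer probe set (0.837). Pgam1 lost it with its dimmer probe set (0.0899), and Emb, called higher at 0.39, was at -0.012 with its dimmer probe set (the cause was not tested). Pfkfb2, Eno3 and Ldha lost it under all 3 normalizations (0.0559 to 0.173), and Pgk1 with array medians subtracted (0.0727). Of the 16 not called, Slc2a10, Bpgm and Eno2 were called under at least 1 alternative, and 7 others (Slc2a8, Hk3, Aldoc, Gapdh, Pgam2, Ldhb and Fbp2) changed sign without a call. The count called lower was 10 to 15, and 10 to 14 when 1 array was left out. The count called higher was 4 in the upper part by mean, 1 with the replicate block, the lowest probe set, the rank sum test or an adjusted p under 0.01, and 2 to 3 when 1 array was left out. Over all genes an adjusted p under 0.01 left 1214 higher and 1552 lower, against 1883 and 2368, and leaving out 1 array gave 1673 to 1910 higher and 2112 to 2445 lower. Higher calls were 44.3% of the total, and 54.7% with array medians subtracted. Among other transport genes the count higher was 2 with array weights, 0 with the lowest probe set or the stricter threshold, and 1 to 2 without 1 array (lower: 3 to 5). Among other enzymes 5 were lower with either filter on dim genes, 1 at the stricter threshold and 2 to 4 without 1 array, and 0 were higher with the replicate block or the stricter threshold. In the GLUT4 list 2 were higher and 12 lower with either filter, and 1 to 2 were higher without 1 array. Of the 28 isoform pairs 18 changed unequally, with 16, 19 and 14 after repeated quantile normalization, without the 3 arrays and with sign flips over the replicate block. Subtracting array medians left 0 relations with Slc2a4. Same-numbered arrays had deviations that correlated at -0.22 to 0.22, and 2 of 8 fed arrays correlated best with the fasted array of their number. A pairing need not leave a strong shared deviation, so these values cannot decide whether the numbers pair the samples. With the number as a block Eno3 and Ldha also lost their calls (limma adjusted p = 0.0592 and 0.0865), and Slc2a10 was called lower (0.0291).

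Whole-tissue values cannot place a change in 1 cell type. Liver, epididymal, germ cell and nerve markers had 1 of 12 lower, 1 of 10 lower, 0 of 11 called (limma; 1 at an unadjusted p under 0.05) and 2 of 9 higher. Of the 14 ciliated markers 0 were called (limma; 0 at an unadjusted p under 0.05). Over all genes 19.2% were called. Markers past the brightness filter were 12 liver, 0 epididymal, 2 germ cell, 2 nerve and 0 ciliated. The summed level of the liver list lay between 4457 and 12394 in fed and 3802 and 9874 in fasted arrays. The counts do not measure how much of such tissue an array held. Of the 32 genes 7 did not reach a linear value of 20 in 8 arrays, so their changes are compressed by background.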
